A study of Gallus gallus with 8 samples.

Results

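PAX5, EBF1, SPI1, POU2AF1 and IKZF1 encode transcription regulators that set up and keep the B lineage, and their expression was followed in chicken DT40 cells with and without BCL6. Every array probe whose accession belongs to one of these chicken RefSeq symbols was taken, which gave 8 probes of the 43603 different probes on the array and 5 genes of its 31529 gene entries. PAX5, SPI1 and IKZF1 had 1 probe each, EBF1 had 2 and POU2AF1 had 3. All 8 probes were well above background on at least 2 arrays and entered the fit, which tested 24080 genes. DT40 is a line of chicken B cells from a bursal lymphoma, used widely because it keeps altering its immunoglobulin genes in culture. Total RNA was read on 8 one-colour Agilent arrays, 3 of wild-type cells (WT), 2 of cells deficient in BCL6 (BCL6KO) and 3 labelled DKO, meaning deficient in IRF4 and BCL6. All 3 groups are DT40 cells with no other agent or treatment named in the labels. The protocol given with the samples describes independent cultures for WT and IRF4KO cells only, so whether the BCL6KO and DKO arrays stand for separate cultures or separate clones is not known, and p-values then measure the spread between these arrays.

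In mouse and human B cells the 5 factors act in a sequence. PU.1, the ETS-family protein encoded by SPI1, and Ikaros, the zinc finger protein encoded by IKZF1, act in early blood progenitors. EBF1 then opens and activates B cell genes, among them PAX5, and PAX5 holds the cells in the B lineage by activating B cell genes and silencing those of other lineages. POU2AF1 encodes OCA-B, a coactivator that binds the octamer factors OCT1 and OCT2 on DNA and is raised in germinal centre B cells and plasma cells. BCL6 represses transcription in B cells of the germinal centre, and IRF4 is needed for plasma cell formation.

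The arrays differed in ways that touch every result given here. The WT and DKO arrays were scanned in the same session and the BCL6KO arrays in another, with slides of their own. Scan session and the BCL6KO label thus cannot be told apart, whether BCL6KO is set against WT or against DKO. Between 62.4% and 68.2% of the spots were well above background on the WT and DKO arrays, and 75.1% and 79.2% on the BCL6KO arrays. Levels are given on a log2 scale as the processed signal relative to the 75th percentile of each array. The dimmest level still counted as well above background lay between -6.86 and -6.05 on the WT and DKO arrays, and at -7.97 and -7.38 on those of BCL6KO.

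The targeted genes were read as a check of the labels. The log2 level of IRF4 averaged 3.01 ± 0.13 over the WT arrays (SD, n = 3), 5.09 ± 0.42 over BCL6KO (n = 2) and -1.72 ± 0.06 over DKO (n = 3). BCL6 stood at 2.56 ± 0.03, -4.73 ± 0.33 and 0.81 ± 0.14 in the same order, so 29.7% of the WT signal of BCL6 and 3.77% of that of IRF4 were left in the arrays labelled DKO. These are the values of the brightest probes. The other IRF4 probe, A_87_P234013, read -3.11, -1.2 and -8.56 in WT, BCL6KO and DKO. It was well above background on every WT and BCL6KO array and on no DKO array. Of the other BCL6 probes, A_87_P180038 read 1.91, -5.28 and 0.02 and A_87_P192653 read 0.22, -6.92 and -1.6 in WT, BCL6KO and DKO, both well above background on all 8 arrays. The remaining one, A_87_P113258, was well above background on all 3 WT arrays and on none of the BCL6KO or DKO arrays. BCL6 signal was thus left in DKO on 3 of 4 probes.

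A table of processed values deposited by the authors did not follow the scanner files label by label. Its columns labelled WT correlated best with the scanner arrays labelled DKO (r = 0.999 across probes, against 0.944 to 0.945 with their own), and 2 of its columns labelled DKO correlated best with a WT scanner array (0.975 and 0.974, against 0.944 with their own). The remaining DKO column reached at most 0.882. The BCL6KO columns matched their own files (0.998). IRF4 was lowest in the scanner arrays labelled DKO and, in the table, in the columns labelled WT (9.61 against 14.76 log2 units in the DKO columns). All directions between WT and DKO given here come from the scanner labels. BCL6, lower in DKO than in WT on each probe in the scanner files, had the reverse order on each probe in the table. Its brightest probe averaged 12.17 log2 units in the WT columns and 13.73 in the DKO columns. The order in the table is stated for IRF4, BCL6 and the members only. For all other genes the direction between WT and DKO rests on the scanner labels alone.

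Most B cell markers were well above background in all 3 groups, but their levels differed. All except POU2AF1 had a lower mean in BCL6KO than in WT, by unequal amounts. CD74 read 6.14 in WT and 0.37 in BCL6KO, LYN 5.01 and -1.75, and BLB1 -4.17 and -4.39. Of 11 B cell markers with a probe, 11 were well above background on every WT array, 8 on every BCL6KO array and 11 on every DKO array. Their summed log2 level was 7.73 to 7.88 in WT, 5.07 to 5.72 in BCL6KO and 6.66 to 6.92 in DKO. The members PAX5, EBF1 and POU2AF1 are among these markers. POU2AF1 read 5.02, 5.30 and 3.82 in the same order, and the sum in BCL6KO is mainly its signal. CD79B, a signalling chain of the B cell receptor, read 6.13 in WT, -2.65 in BCL6KO and 5.02 in DKO. BTK, a kinase of the same receptor, read 3.39, -3.67 and 2.31. Among 9 T cell markers, CD4 and CTLA4 were well above background on no array, while CD3D read 6.01, 1.00 and 3.29, and the summed level was 6.05 to 6.10 in WT, 1.25 to 1.84 in BCL6KO and 3.14 to 3.51 in DKO. The summed level of 11 myeloid markers was -0.22 to -0.09, -1.29 to -0.99 and -0.28 to -0.16, with CD14 not well above background on any array. That of 10 erythroid or thrombocyte markers was 0.20 to 0.38, 0.73 to 0.87 and 1.26 to 1.41, with TAL1 not well above background on any array, and that of 14 fibroblast or epithelial markers was 2.31 to 2.5, 2.73 to 2.89 and 2.94 to 3.05, with EPCAM not well above background on any array. The part of these markers in the results was not tested. In RNA from whole cultures, fewer cells that express a gene and less of its RNA per cell cannot be told apart.

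PAX5 was read by probe A_87_P053976. Its log2 level was -2.68, -2.77 and -2.75 on the WT arrays, -10.19 and -9.62 on the BCL6KO arrays, and -3.28, -3.23 and -3.25 on the DKO arrays. Neither BCL6KO reading was well above background, and the 3 groups did not overlap. In intensity units the BCL6KO arrays read 1.88 and 2.45, while the WT arrays read 435 to 462 and the DKO arrays 265 to 274.

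EBF1 was read by a pair of probes. On A_87_P037501, which stands for the gene in the fit because it was the brighter, the log2 level was 0.32, 0.28 and 0.31 in WT, -6.21 and -8.02 in BCL6KO, and 0.62, 0.53 and 0.55 in DKO. Only the first BCL6KO array was well above background there. On A_87_P072916 the level was -1.13, -1.17 and -1.19 in WT, -8.55 and -9 in BCL6KO, and -0.78, -0.81 and -0.82 in DKO. Neither BCL6KO array was well above background on this probe, and on both probes each DKO array was above each WT array.

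SPI1, read by A_87_P008737, stood at -0.52, -0.41 and -0.44 in WT, -9.10 and -9.57 in BCL6KO, and 0.38, 0.44 and 0.40 in DKO. Its signal was not well above background on either BCL6KO array and was higher on every DKO array than on any WT array.

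IKZF1, read by A_87_P008741, stood at 0.43, 0.46 and 0.42 in WT, -0.79 and -0.68 in BCL6KO, and 0.73, 0.77 and 0.80 in DKO. It was well above background on all 8 arrays, with the BCL6KO arrays lowest, the DKO arrays highest and no overlap between groups.

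POU2AF1 had the other order, with DKO lowest. On A_87_P036484, its brightest probe and the one in the fit, the level was 5.12, 4.95 and 5.00 in WT, 4.95 and 5.66 in BCL6KO, and 3.62, 3.92 and 3.92 in DKO. On A_87_P112233 it was 1.53, 1.55 and 1.61 in WT, 0.99 and 1.46 in BCL6KO, and -0.17, -0.04 and 0.10 in DKO. The DKO arrays were lowest on both probes. On A_87_P220718 it was -0.87, -0.85 and -0.86 in WT, -0.24 and -0.22 in BCL6KO, and -2.55, -2.41 and -2.33 in DKO. The 3 probes thus agree on the place of DKO and differ on BCL6KO, which overlapped WT on the first probe, lay below it on the second and above it on the third.

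**Figure D1:**
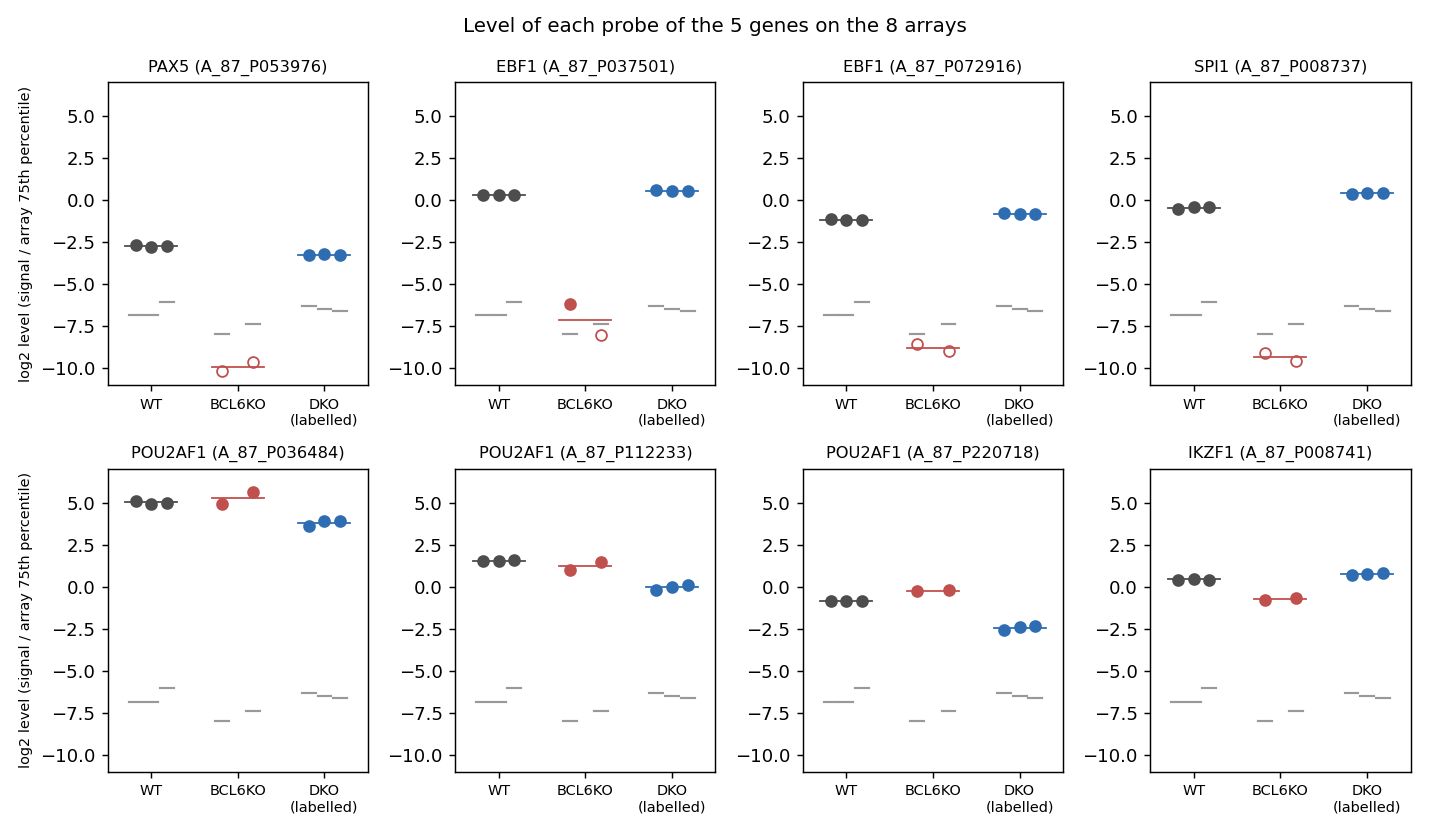
Log2 level of each of the 8 probes (y axis, log2 of the processed signal over the 75th percentile of the array) on the 8 arrays, grouped by label (x axis). Filled points were well above background and open points were not, coloured lines are group means and short grey lines mark the dimmest level still well above background on each array; the BCL6KO points of PAX5, EBF1 and SPI1 lie at or under that limit except EBF1 on 1 array.

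Loss of BCL6 was compared with WT to ask what BCL6 deficiency changes in these B cells. PAX5, EBF1 and SPI1 fell to the detection limit or near it, IKZF1 fell to 44.3% of its WT signal, and POU2AF1 did not pass the test. Where no array of a group was well above background, the fold is a bound: the mean of the measured group is set against the dimmest level still well above background on each array of the other, or the probe's own level where higher. An adjusted p beside a bound, here and below, tests the readings as they stand, including those not well above background. It does not test the bound. PAX5 fell by a factor of at least 30.8 (limma adjusted p = 1.64e-07). For SPI1 the factor was at least 149 (adjusted p = 4.87e-08). EBF1 was lower with 1 of 2 BCL6KO arrays measured (adjusted p = 1.42e-05), and its other probe was at least 91.3-fold lower (adjusted p = 5.63e-08 over all probes). For IKZF1 the drop was 2.26-fold (log2 change -1.17 ± 0.07 SE, adjusted p = 9.18e-06).

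These calls stand in a comparison where most genes were called. Of all genes tested, 69.8% passed the test, 42.1% higher and 27.7% lower in BCL6KO, so the count of 4 called members of 5 lies near the background share, and all 4 were lower. Scaling each array by its median moved the share of higher genes among the called ones from 60.3% to 45.3% and the median change of all genes from 0.24 to -0.05. The share of genes at or below the change of IKZF1 was 10.5%. A pattern like that of PAX5 and SPI1, well above background on every WT and DKO array and on no BCL6KO array, was held by 110 genes, or 0.457% of those tested.

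POU2AF1 had a log2 change of 0.28 ± 0.21 SE on the brightest probe (adjusted p = 0.27, 95% interval -0.22 to 0.79), close to the median of all genes. Its other probes gave -0.34 (adjusted p = 0.0763) and 0.63 ± 0.08 (1.55-fold higher, adjusted p = 0.000367), in a fit where 70.5% of all probes were called. The sign on the brightest probe turned with scaling by the array median (-0.01) and without the second BCL6KO array (-0.07), and without the first it was 0.64 and called (adjusted p = 0.00927).

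The size of the drop of the other 3 differed under the normexp model, which corrects background and adds an offset of 50. In BCL6KO, PAX5 read 1.88 and 2.45 intensity units, below that offset. An offset narrows changes of dim readings, so normexp changes, here and below, are not on the scale of the bounds. The part of the offset was not tested. The normexp model, run on median spot and background signals, left PAX5 at a log2 change of -0.42 (adjusted p = 0.757), EBF1 at -3.19 (adjusted p = 0.0662) and SPI1 at -2.55 (adjusted p = 0.104), none of them called. After 18 aberrant background readings of the first BCL6KO array were replaced by that array's median, the changes were -2.49, -5.02 and -4.58, all called.

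**Figure D2:**
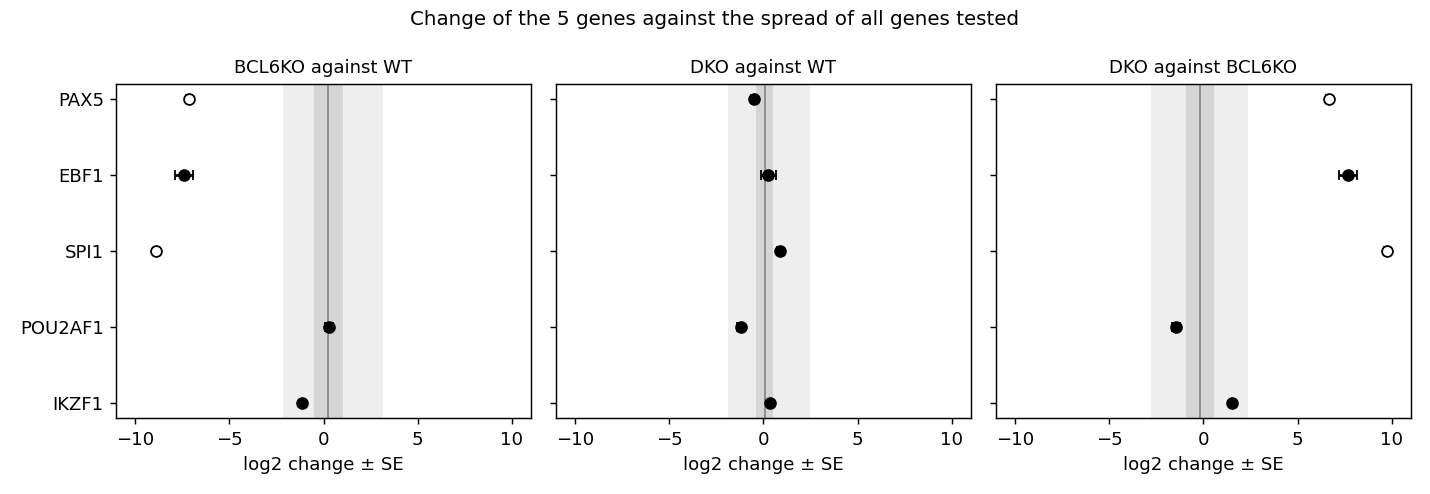
Log2 change of the 5 genes (x axis, with SE bars) in the 3 comparisons against the spread of all 24080 genes tested, where the pale band runs from the 5th to the 95th percentile, the darker band covers the quartiles and the grey line is the median. Open points rest on a group with no array well above background; PAX5, EBF1 and SPI1 lie outside the pale band against BCL6KO on either side, and all 5 genes lie inside it for DKO against WT.

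The arrays labelled DKO were compared with WT to ask what follows targeting of IRF4 together with BCL6. SPI1 and IKZF1 were modestly higher in the arrays labelled DKO, PAX5 was modestly lower, and POU2AF1 was lower on all 3 of its probes. The SPI1 signal rose 1.82-fold, a log2 change of 0.86 ± 0.12 SE (adjusted p = 0.00101). IKZF1 was 1.25-fold higher (0.33 ± 0.06, adjusted p = 0.00339). PAX5 was 1.43-fold lower (-0.52 ± 0.14, adjusted p = 0.019). POU2AF1 was 2.30-fold lower (-1.20 ± 0.19, adjusted p = 0.00166), and its other probes were 3.03-fold and 2.98-fold lower (adjusted p = 6.41e-05 and 3.54e-06). Of all genes, 52.4% were called, 28.6% higher and 23.8% lower, and of all probes 53.9%, with a median change of 0.07. With median scaling the share of higher genes among the called ones went from 54.6% to 41.9%.

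EBF1 had a log2 change of 0.26 ± 0.41 SE on the brighter probe (adjusted p = 0.638, 95% interval -0.72 to 1.25), although its WT and DKO arrays did not overlap. The fit shares its spread with the BCL6KO arrays, whose readings on this probe differed by more than those of any other member. Without the first or the second BCL6KO array the change of 0.26 was called (adjusted p = 0.00191 and 0.00196). The dimmer probe was 1.29-fold higher (0.36 ± 0.11, adjusted p = 0.0337 over all probes).

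Slides 2 and 3 each held a WT and a DKO array, and the differences within them had the same signs as the pooled ones. DKO minus WT was -0.51 and -0.48 for PAX5, 0.34 and 0.21 for EBF1, 0.79 and 0.88 for SPI1, -1.33 and -1.08 for POU2AF1 and 0.27 and 0.34 for IKZF1. With slide as a fixed block over these 4 arrays, IKZF1 was not called (0.31, adjusted p = 0.0559). PAX5 lost its call without WT array 1, DKO array 1 or DKO array 3 (adjusted p = 0.0609, 0.058 and 0.0518), at changes of -0.49, -0.5 and -0.52.

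The deposited value table put the DKO columns on the other side of the WT columns for most members. POU2AF1 averaged 15.99 log2 units in the DKO columns and 15.19 in the WT columns, IKZF1 11.43 against 12.12, SPI1 10.32 against 11.76, and EBF1 11.43 against 11.92. PAX5 ranged from 6.86 to 8.30 in the DKO columns and from 8.03 to 8.09 in the WT columns. Sorted by size, the log2 values of the 3 WT columns were equal to within 0.000468 and those of the 5 other columns to within 0.00117, while the sets differed by up to 0.876, so the columns have 2 distributions. How they were normalized is not given in the sources used here, and the difference between these labels was not tested in the table. PAX5, EBF1, SPI1 and IKZF1 were lowest in the BCL6KO columns in the table as in the scanner files, at 1.77, 4.70, 2.62 and 10.43 log2 units.

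**Figure D3:**
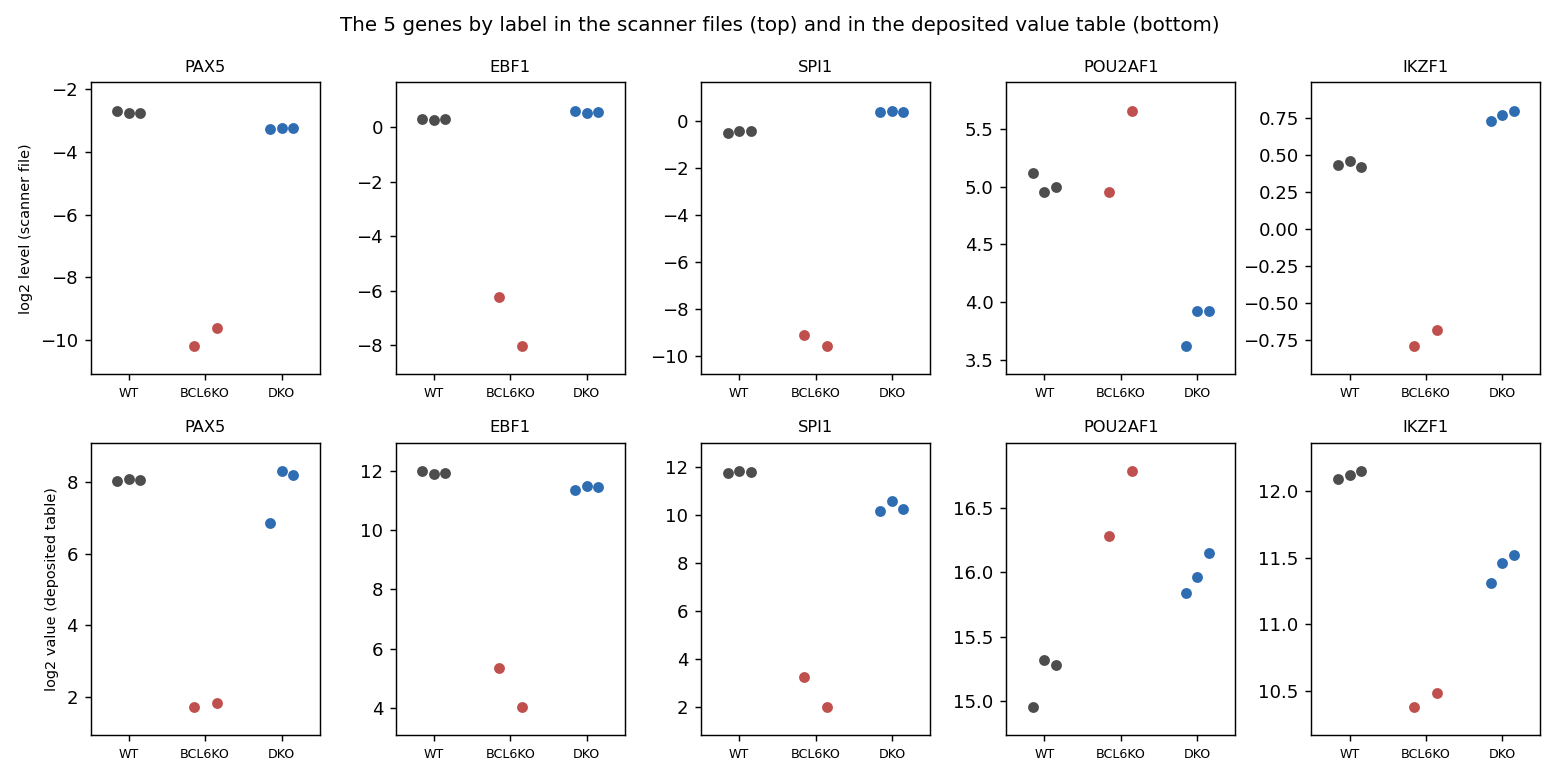
Log2 level from the scanner files (top row) and log2 value of the deposited table (bottom row) for the probe that stands for each of the 5 genes, by label, with 1 point per array or column. BCL6KO is lowest for PAX5, EBF1, SPI1 and IKZF1 in both rows, while the order of WT and DKO is reversed between the rows for EBF1, SPI1, POU2AF1 and IKZF1.

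DKO was set against BCL6KO to ask how the arrays differ in which IRF4 is targeted in addition. PAX5, EBF1, SPI1 and IKZF1 were all higher in DKO, and POU2AF1 was lower on each probe. PAX5 rose by a factor of at least 21.5 (adjusted p = 2.7e-07) and SPI1 by one of at least 271 (adjusted p = 5.88e-08). EBF1 was higher with 1 of 2 BCL6KO arrays measured (adjusted p = 1.35e-05), and its other probe was at least 117-fold higher. IKZF1 rose 2.83-fold, a log2 change of 1.5 ± 0.07 SE (adjusted p = 3.46e-06). POU2AF1 was 2.79-fold lower on the brightest probe (-1.48 ± 0.21, adjusted p = 0.000805), and 2.40-fold and 4.61-fold lower on the others. The test was passed by 68.5% of all genes, with 29% of all genes higher and 39.4% lower in DKO, and by 68.8% of all probes. This comparison shares the BCL6KO arrays with the first, so both rest on the same pair of low readings. BCL6 signal differed here as well, being 46.5-fold higher in DKO on its brightest probe (log2 change 5.54, adjusted p = 4.48e-07). The DKO and BCL6KO arrays were also scanned on different days and read with different versions of Feature Extraction. The added targeting of IRF4, the BCL6 signal left in DKO, scan day and this version thus cannot be told apart.

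The normexp model on median signals left PAX5 with a change of -0.02 (adjusted p = 0.987), and with the aberrant background readings replaced it gave 2.04, called. In the authors' value table, whose DKO columns correlated best with WT scanner arrays, POU2AF1 had a change of -0.54 that was not called (adjusted p = 0.245), while the other 4 members were called higher.

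**Figure D4:**
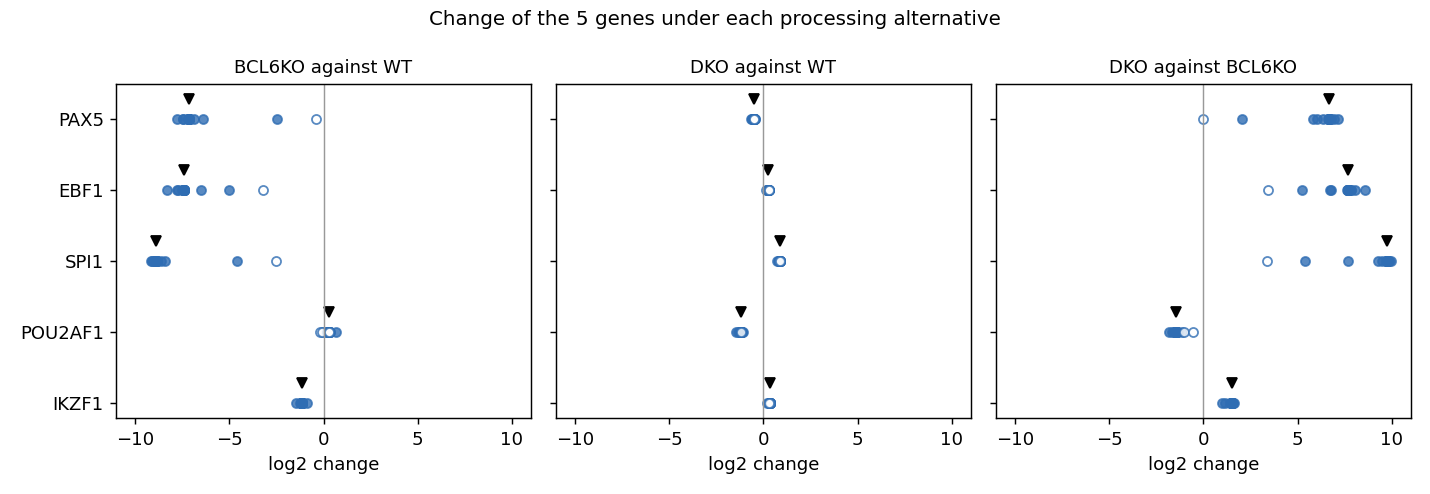
Log2 change of the 5 genes (x axis) in the 3 comparisons under each processing alternative, with filled points called, open points not called and black triangles at the reported value. The open points furthest towards 0 for PAX5, EBF1 and SPI1 against BCL6KO come from the normexp model on median signals, and POU2AF1 in BCL6KO against WT lies on both sides of 0.

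Among themselves the members formed no single profile. Pearson's correlation over the 8 arrays was 0.951 to 0.992 among PAX5, EBF1, SPI1 and IKZF1. Between POU2AF1 and each of these it was -0.714 to -0.491. BCL6KO readings that were not well above background enter these correlations. Likeness was measured by the root mean square difference of log2 levels centred on the gene mean, taken over the 8 arrays. Since readings that are not well above background enter it for PAX5, EBF1 and SPI1 in BCL6KO, it was also taken with each level under an array's detection limit raised to that limit, an alternative chosen after seeing the data. The smallest difference between members was that of PAX5 and EBF1 (0.74) with the levels as read and that of EBF1 and SPI1 (0.55) with the levels raised, and PAX5 and EBF1 then stood at 1.24. SPI1 and POU2AF1 differed most either way (4.51 and 3.8). Among 4293 other named genes, LAMP3 (0.14), MAPT (0.15) and CCND3 (0.16) were closest to POU2AF1, and MORF4L2, WDR91 and WDR61 (0.05 each) to IKZF1. These were the same with levels raised. No reading of POU2AF1 or IKZF1 was under the limit, so raising levels left these members unchanged and tests their nearest genes little. MYO1F (0.32), ARRDC1 (0.34) and TLR2 (0.47) were closest to EBF1, and 2 of them stayed so with levels raised. B4GALT6 (0.13), CD5, a surface receptor of T cells and some B cells (0.16), and STMN2 (0.30) were closest to SPI1, and B4GALT6 alone stayed. For PAX5 the nearest genes all differed between the ways of taking levels. They were LYN, a Src-family kinase of B cells, HCLS1 and AMY2A (0.24 each) with levels as read, and RAC2 (0.25), DAPP1 (0.31) and FOXO1 (0.32) with levels raised. Ranked by Pearson's correlation in place of the difference, 5 of the 15 nearest genes stayed. They were ARRDC1 and TLR2 for EBF1 and B4GALT6, CD5 and STMN2 for SPI1. None stayed for PAX5, POU2AF1 or IKZF1, so the nearest genes of these members depend on the measure.

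Close relatives of the members were mostly dim. Of 15 paralogues, 8 had a probe and 4 were tested. Compared with WT, IKZF5 was 1.48-fold lower in BCL6KO (log2 change -0.56, adjusted p = 0.00198) and 1.19-fold lower in DKO than in WT (adjusted p = 0.046), the latter lost under 11 of 24 alternatives, among them each WT or DKO array left out (adjusted p = 0.0634 to 0.129). Its dimmer probe A_87_P081376 read -5.04, -5.14 and -4.97 in WT, BCL6KO and DKO. PAX2, a paired-box gene of kidney and nervous system development, was well above background on both BCL6KO arrays (mean level 0.07 ± 0.31 SD), on 1 of 3 WT arrays and on no DKO array. It was higher in BCL6KO than in WT (adjusted p = 2.27e-05) and at least 92.9-fold lower in DKO than in BCL6KO (adjusted p = 1.52e-05). A further PAX2 probe, A_87_P058226, read -3.07 in BCL6KO and was not well above background elsewhere. PAX3, a paired-box gene of muscle and neural crest precursors, was well above background on all 3 WT arrays (mean level -2.38 ± 0.043 SD), on 1 of 2 BCL6KO arrays and on 1 of 3 DKO arrays (adjusted p = 0.00039 and 0.000955, both lower than WT). The other PAX3 probe, A_87_P057586, read -2.03 in WT and was well above background on no BCL6KO or DKO array. Compared with WT, PAX7 was 1.54-fold higher in BCL6KO (adjusted p = 0.0485) and 1.70-fold lower in DKO than in BCL6KO (adjusted p = 0.0235). The first call was lost under 17 of 23 alternatives, with a log2 change of 0.26 without BCL6KO array 2 and 0.98 without array 1. The second was lost or turned under 9 of 24, and stood at -0.4 and -1.12 without the same arrays. Other PAX7 probes were dimmer. A_87_P116663 was well above background on the BCL6KO arrays only (mean level -7), and A_87_P058611 on no array. Probes for PAX6, PAX9, EBF2 and IKZF2 were well above background on at most 1 array each.

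Among 39 other transcription factors of the B lineage, 23 were tested. Over all genes tested, 42.1% rose and 27.7% fell in BCL6KO against WT. The shares were 28.6% and 23.8% in DKO against WT, and 29% and 39.4% in DKO against BCL6KO. Counts of this list and of those below stand beside these shares. In BCL6KO against WT 8 rose and 14 fell, with a median change of -0.99 against 0.24 over all genes. FOXO1, which acts with EBF1 in early B cells of the mouse, was 29.4-fold lower (log2 change -4.88, adjusted p = 1.92e-07), and BCL6 itself was 156-fold lower. TCF3, which encodes the E2A proteins, was 5.74-fold higher (2.52, adjusted p = 7.42e-07), and ID1, an inhibitor of E proteins, was 5.79-fold higher (2.53, adjusted p = 2.7e-05). Against WT, 6 rose and 12 fell in DKO (median -0.55 against 0.07). SOX4, a factor of early B cell development, was 8.55-fold higher (adjusted p = 4.86e-07) and ID2 3.24-fold higher, whereas ID3 was 6.83-fold lower and IRF4 26.6-fold lower. Between DKO and BCL6KO 9 were higher and 7 lower in DKO (median 0.09 against -0.18). FOXO1 was 15.6-fold higher and TCF3 4.34-fold lower there. The counts of this list include BCL6 and IRF4, the targeted genes.

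**Figure D5:**
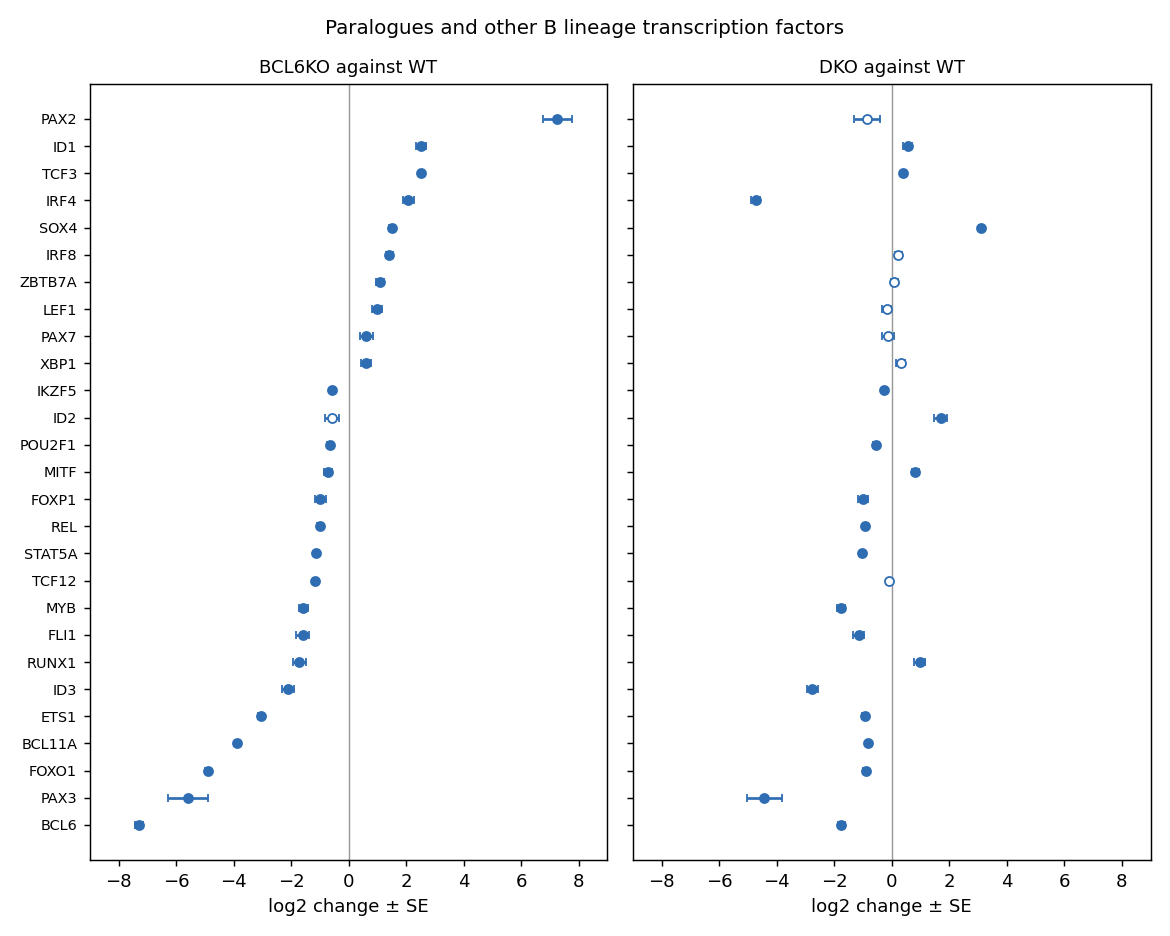
Log2 change with SE (x axis) of the tested paralogues and other B lineage transcription factors (y axis, ordered by the left panel) in BCL6KO and in DKO against WT, with filled points called and open points not called. PAX2 lies furthest right and BCL6 furthest left in BCL6KO, and IRF4 lies furthest left in DKO.

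Genes that EBF1 activates in mouse B cells mostly fell in BCL6KO. Of 24 such genes 13 were tested, and 9 fell and 3 rose against WT, with a median change of -4.03. Over all genes tested, 27.7% fell and 42.1% rose. PTPN6, which encodes the phosphatase SHP-1, was 816-fold lower (log2 change -9.67, adjusted p = 2.96e-08), and CD79B was 439-fold lower (adjusted p = 5.88e-08). CEBPB was 5.42-fold higher (2.44, adjusted p = 0.0168), with BCL6KO readings of -2.48 and 0.19 against a WT mean of -3.58, and its change was 1.1 without BCL6KO array 1 and 3.77 without array 2, called both times. FGR, a Src-family kinase, was higher with 2 of 3 WT arrays measured (adjusted p = 0.00996, but 0.0604 without BCL6KO array 2). The DKO arrays had 8 lower and 3 higher than WT (median -0.91). TRAF5, an adaptor of TNF receptors, was 4.44-fold lower (adjusted p = 1.26e-06), TLR4 was 5.33-fold higher (adjusted p = 0.000523) and CEBPB was 3.8-fold higher (adjusted p = 0.0356). That CEBPB call was lost under 11 of 24 alternatives, among them each WT or DKO array left out (adjusted p = 0.0718 to 0.1). Compared with BCL6KO, 9 rose and 3 fell in DKO (median 3.60), with PTPN6 598-fold and CD79B 204-fold higher and CCND3, a D-type cyclin, 3.33-fold lower. The list holds PAX5 and POU2AF1 themselves.

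Genes that PAX5 activates in mouse B cells did not move one way. Of 30 such genes 10 were tested, with 5 higher and 5 lower in BCL6KO than in WT (median -0.35), 2 higher and 4 lower in DKO than in WT (median -0.02), and 6 higher and 4 lower in DKO than in BCL6KO (median 0.56). Over all genes, 42.1% were called higher and 27.7% lower in BCL6KO than in WT. CD72, an inhibitory co-receptor of B cells, was lower in BCL6KO than in WT with 1 of 2 BCL6KO arrays measured (adjusted p = 4.65e-06) and 3.63-fold higher in DKO than in WT (adjusted p = 0.00901). SDC4, which encodes syndecan-4, was 8.39-fold higher in BCL6KO and 12.5-fold higher in DKO than in WT (adjusted p = 2.35e-06 and 8.73e-07). IRF4 belongs to this list and rose 4.23-fold in BCL6KO against WT. As a gene targeted in DKO, it is also among those counted lower there. NCOA7 was 4.48-fold lower in DKO than in WT, and IRF8 was 2.28-fold lower in DKO than in BCL6KO. The list holds the member EBF1, counted lower in BCL6KO than in WT and higher in DKO than in BCL6KO.

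Genes that PAX5 represses in mouse B cells likewise split. Of 30, 14 were tested. In BCL6KO against WT 5 rose and 4 fell, with a median of 0.33 near that of all genes. Over all genes 42.1% rose and 27.7% fell. JCHAIN, the linker of IgM and IgA polymers, was 4.92-fold higher and CD47 3.02-fold higher (adjusted p = 3.03e-06 and 3.58e-06). EMB, an adhesion molecule, was at least 278-fold lower (adjusted p = 2.32e-08) and CD28, a T cell costimulatory receptor, at least 13.7-fold higher (adjusted p = 0.00206), both named after their values were seen because one group of each was not well above background. SATB1, a chromatin organizer of T cells, was lower with 1 of 2 BCL6KO arrays measured (adjusted p = 0.00214, log2 change -2 without BCL6KO array 2 and -4.11 without array 1), and CCR2, a chemokine receptor, was 1.79-fold lower (adjusted p = 0.00494). Neither SATB1 nor CCR2 was called with normexp on median signals, where both signs turned, and CCR2 stayed uncalled with the aberrant readings replaced. Equal numbers, 5 and 5, rose and fell in DKO against WT (median 0.07). EMB was 8.02-fold higher there, GRAP2, an adaptor of T cell signalling, was higher with 2 of 3 WT arrays measured, and CAMK2D and GSN were 3.12-fold and 1.71-fold lower. Compared with BCL6KO, 4 rose and 6 fell in DKO (median -0.42, or -0.26 with 2 genes set at their bounds). EMB was at least 2230-fold higher (adjusted p = 1.55e-08), JCHAIN 6.04-fold lower, CD28 4.46-fold lower and GRAP2 11.9-fold higher, and SATB1 was higher with 1 of 2 BCL6KO arrays measured. The CD28 call was lost without WT array 1, DKO array 1 or 2, or either BCL6KO array (highest adjusted p = 0.132).

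Genes that PU.1 activates in mouse blood cells fell in the main in BCL6KO. Of 30, 12 were tested, and 9 fell and 2 rose against WT (median -2.27). Over all genes 27.7% fell and 42.1% rose. The list shares EBF1, CD72 and TLR4 with those above and also holds BTK, 134-fold lower (log2 change -7.06, adjusted p = 9.48e-08). FCER1G, the signalling chain of Fc receptors, was 1.71-fold higher (adjusted p = 0.000253). CSF3R, the receptor of a granulocyte growth factor, was at least 2.8-fold higher (adjusted p = 0.00111), also named after its values were seen. Against WT, 5 fell and 3 rose in DKO (median -0.09), with LYZ, lysozyme, 7.40-fold lower and CTSS, cathepsin S, 6.89-fold lower. The shared genes CD72 and TLR4 are among the 3 that rose. Between DKO and BCL6KO 6 were higher and 3 lower in DKO (median 1.46), with PTPRC, which encodes CD45, 1.48-fold lower and SIRPA 1.38-fold lower. The value table put PTPRC at 0.01 and SIRPA at 0.78 in this comparison, neither of them called. The DKO columns of that table correlated best with WT scanner arrays, so its comparison may not be that of the scanner labels. SIRPA was also not called without DKO array 2 or 3 (adjusted p = 0.053 and 0.0517), and its change was -0.35 without BCL6KO array 2.

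Partners and targets of OCA-B were few on the array. Of 16, 5 were tested, and in BCL6KO against WT 4 fell and 1 rose (median -1.01). Over all genes 27.7% fell and 42.1% rose. CD36, a scavenger receptor, was 2.18-fold higher (adjusted p = 0.00188), while BCL6 and BTK were among those lower. BCL6 is itself a targeted gene and is counted in each comparison of this list. In DKO against WT 3 fell and 1 rose (median -0.55), BTK being lower by a log2 change of -1.08 and SYK, a kinase of the B cell receptor, 1.41-fold higher (adjusted p = 0.00235). In DKO against BCL6KO 3 rose and 1 fell (median 1.5), and CD36 was 1.57-fold lower (log2 change -0.98 without BCL6KO array 1 and -0.31 without array 2, and not called without DKO array 3, adjusted p = 0.0606).

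Ikaros partners and subunits of the NuRD chromatin remodelling complex changed in both directions, by up to 2.55-fold. Of 22, 11 were tested. In BCL6KO against WT 4 rose and 5 fell (median -0.28), MBD2, a methyl-CpG binding subunit, being 2.55-fold higher and SMARCA4, the BRG1 ATPase, 2.36-fold higher, with GATAD2A 1.98-fold and RBBP4 1.74-fold lower (log2 change -0.49 without BCL6KO array 1 and -1.11 without array 2). In DKO against WT 6 rose and 2 fell (median 0.32), MBD2 and SMARCA4 being 2.10-fold and 1.82-fold higher and MTA1 1.21-fold lower. In DKO against BCL6KO 5 rose and 2 fell (median 0.25), with RBBP4 2.55-fold and GATAD2A 2.10-fold higher.

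Across all 8 lists together, 79 different genes were tested, 3 of them members. In BCL6KO against WT 26 rose and 43 fell (median -0.56), in DKO against WT 23 rose and 35 fell (median -0.16), and in DKO against BCL6KO 35 rose and 25 fell (median 0.25), to be read against the shares of all genes given with each comparison.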

How the data were processed

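Members, lists and tests were chosen with earlier results of these data known. Per the file headers, scanner files give intensity per spot, the processed signal being background-subtracted and detrended by Agilent Feature Extraction (version 10.7.1.1 for WT and DKO, 10.7.3.1 for BCL6KO), with no normalization between arrays. The authors' value table, also intensity on a linear scale, comes with processing notes by the submitters naming limma and R 2.12.0. Its settings and centring are not given in the sources used here, its columns had log2 medians of 7.81 (WT) and 7.83 (BCL6KO and DKO), and it served as an alternative only.

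The log2 processed signal minus the array's 75th percentile over spots that are not controls was used. Outlier spots (31 to 139 per array) were dropped, repeated spots averaged, and no spot was saturated. Probes that were well above background on fewer than 2 of 8 arrays were left out, and 34144 stayed. Each gene was represented by its brightest probe. Accessions matched to the RefSeq table for GRCg7b named 10691 probes with 4932 symbols, 4298 of them tested. One limma model (3.58.1, in R 4.3.3 with the package data.table, version 1.17.8) with a mean per group gave 3 contrasts on 5 residual and 1.598 prior degrees of freedom, with Benjamini-Hochberg adjustment over all genes or, where stated, all probes. Genes were called at an adjusted p under 0.05. The number of arrays limits the precision. The fit was tested on simulated data. Named genes were all members, IRF4, BCL6, tested paralogues, the 2 largest called changes each way per list and comparison among genes measured in both groups, and the 3 nearest profiles per member. Normexp (offset 50) ran on gMedianSignal and gBGMedianSignal, since the mean signal column planned for it was not among those read here. Other alternatives were other scalings, filters, probe summaries, variance models, blocks and arrays left out.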

Additional observations from a re-analysis of the deposited data

How the results depend on the processing

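Of the 5 members' 15 changes, those of IKZF1 in BCL6KO against WT (log2 change -1.47 to -0.86) and in DKO against BCL6KO (1.00 to 1.64) kept their direction and call under every alternative. Normexp on median signals gave, in BCL6KO against WT, PAX5 -0.42, EBF1 -3.19, SPI1 -2.55 and POU2AF1 -0.18, with 6881 genes and 35 list genes called against 16807 and 69. For DKO against WT it gave PAX5 -0.44, SPI1 0.82, POU2AF1 -1.21 and IKZF1 0.3, with 2841 and 13 called against 12623 and 58. For DKO against BCL6KO it gave PAX5 -0.02, EBF1 3.43, SPI1 3.38 and POU2AF1 -1.03, with 5932 and 29 called against 16487 and 60. With the 18 aberrant background readings replaced, all these member calls returned. Median scaling put POU2AF1 in BCL6KO against WT at -0.01. With only the groups compared in the fit, EBF1 in DKO against WT (0.26) was called. A minimum fold of 1.5 left PAX5 (-0.52), SPI1 (0.86) and IKZF1 (0.33) in DKO against WT uncalled, with 8609, 5261 and 8122 genes called in the 3 comparisons in order and 33 list genes in DKO against WT. Slide as a fixed block left IKZF1 at 0.31, uncalled. The value table, whose DKO columns correlated best with WT scanner arrays, gave POU2AF1 -0.54 in DKO against BCL6KO, with 2764 genes and 28 list genes called. Pearson's correlation kept 5 of 15 nearest genes, and raising levels to the detection limit, chosen after seeing the data, kept 9. Those 9 include all the genes nearest to POU2AF1 and IKZF1, members with no reading under the limit. Apart from the aberrant readings and the fewer arrays in a fit, the cause of these changes was not tested.

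Leaving out each array in turn gave, in BCL6KO against WT, PAX5 -7.45 to -6.88, EBF1 -8.32 to -6.51, SPI1 -9.11 to -8.64, POU2AF1 -0.07 to 0.64 and IKZF1 -1.23 to -1.12. In DKO against WT it gave PAX5 -0.54 to -0.49, EBF1 0.23 to 0.28, SPI1 0.83 to 0.89, POU2AF1 -1.25 to -1.10 and IKZF1 0.31 to 0.34. In DKO against BCL6KO it gave PAX5 6.36 to 6.93, EBF1 6.77 to 8.58, SPI1 9.50 to 9.98, POU2AF1 -1.84 to -1.13 and IKZF1 1.44 to 1.56. Where this left 1 BCL6KO array, its spread was taken from the other groups. The ranges of PAX5, EBF1 and SPI1 against BCL6KO rest on readings not well above background, except EBF1 on 1 array. They show how steady the readings were and do not measure the size of the change, for which PAX5 and SPI1 have bounds only.

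Arrays sharing a replicate number did not deviate together (correlations -0.06 to 0.04). Arrays known to share a slide gave 0.01 and -0.02, so this measure did not pick up that sharing. It therefore cannot settle whether the numbers pair the samples. With the replicate block 15334, 11320 and 14884 genes were called and no member's call changed (PAX5 in DKO against WT -0.52, adjusted p = 0.0415).

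Of other named genes, normexp on median signals turned SATB1 (1.35) and CCR2 (1.98) in BCL6KO against WT, PAX7 (0.01) in DKO against WT, and SATB1 (-0.25), SMARCA4 (0.01), MBD2 (0.08) and PAX3 (-2.05) in DKO against BCL6KO. With readings replaced it turned CCR2 (0.08), PAX7 (0.01) and PAX3 (-0.01) in the same comparisons. PAX7 in DKO against WT also turned with the mean of its probes (0.28) and the slide block (0.04). In DKO against BCL6KO the value table turned PTPRC (0.01), SIRPA (0.78), GRAP2 (-0.60) and PAX7 (0.11), with DKO columns that correlated best with WT scanner arrays. None of these was called. A filter asking for 2 arrays of every group left no value for PAX5, EBF1 and SPI1, and the promoter motif search was not run.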

Other observations

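The genes next to the members on the chromosome, in the order of the RefSeq assembly GRCg7b, were looked up after the members' values were seen, and 3 of them were tested. MELK, a cell cycle kinase beside PAX5, read 2.92 in WT and 2.45 in BCL6KO, a drop of 1.38-fold (adjusted p = 0.0169). CLINT1, a clathrin adaptor gene beside EBF1, was 1.60-fold higher in BCL6KO (0.68, adjusted p = 7.27e-05). SLC39A13, a zinc transporter gene beside SPI1, was 1.37-fold higher in BCL6KO (0.46, adjusted p = 0.0385). All 3 were well above background on all 8 arrays, unlike the members beside them.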
